A study of Mus musculus with 12 samples.

Results

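The interleukin-1 (IL-1) and interleukin-18 (IL-18) axis was followed through 10 genes chosen by name from the 25700 genes of the count table: the ligands Il1a, Il1b and Il18, the antagonists and decoys Il1rn, Il1r2 and Il18bp, the signalling receptor Il1r1, the inflammasome sensor Nlrp3 and the inflammatory caspases Casp1 and Casp4. The rule names the genes and uses no measured value, though it was written with earlier results of these data known. All 10 passed the filter on low counts. All 4 groups of 3 libraries are described.

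IL-1 and IL-18 are inflammatory cytokines of myeloid and barrier cells. IL-1β and IL-18 are made as inactive precursors that caspase-1 cuts after an inflammasome such as NLRP3 has assembled, whereas IL-1α is active as a precursor. The axis carries its own brakes: the IL-1 receptor antagonist (Il1rn) occupies the receptor without signalling, the decoy receptor IL-1R2 binds IL-1 without a signalling domain, and the secreted IL-18 binding protein (Il18bp) captures IL-18, a cytokine known for driving interferon-gamma production by T and natural killer (NK) cells. In the liver, Kupffer cells, the resident macrophages, are a known source of IL-18.

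Gene expression was measured by bulk RNA sequencing of mouse liver non-parenchymal cells enriched on beads for F4/80, a macrophage surface protein. The title of the series asks whether taking up red cells programs liver macrophages towards an anti-inflammatory state. The 4 groups were WT mice (Spta wt/wt) given saline, sph/sph mice given saline, WT mice given an agonistic antibody to CD40, and sph/sph mice given that antibody. Sph/sph mice carry a spectrin mutation that makes red cells fragile, and the antibody activates CD40, a receptor on antigen-presenting cells, at 20 mg/kg into the peritoneum for 30 h. By the labels all mice were males aged 8 to 10 weeks, and the design text describes littermate controls and counts 3 mice per group, so the spread between libraries is taken as the spread between animals. The count table's own columns call the control genotype heterozygous where every label says wild type; the labels are followed. In bulk samples, fewer cells of a type and less RNA per cell cannot be told apart.

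Depth was 14991250 to 18984067 counts per library. Letters A to C name the libraries of a group in column order and pair nothing across groups. Within each treatment the column names of the A libraries of both genotypes share an ID number whose meaning is not given here. The A library of every group held 0 counts on 4 Y-linked genes against the male label, evenly over the groups. The macrophage label was checked against 8 Kupffer cell markers, whose summed level was 28905 to 33423 CPM (reads scaled to equal library totals) in WT saline, 23223 to 34393 in sph/sph saline and 11215 to 16671 in sph/sph anti-CD40, but 161 to 408 in WT anti-CD40, where all 8 markers fell. Library C of sph/sph anti-CD40 stood apart from A and B: Gbp5, an interferon-induced gene, was at 41.5 CPM against 519 and 542, and B cell markers summed to 1660 CPM against 103 and 41.2. Calls that change without it are given with and without it.

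**Figure D1:**
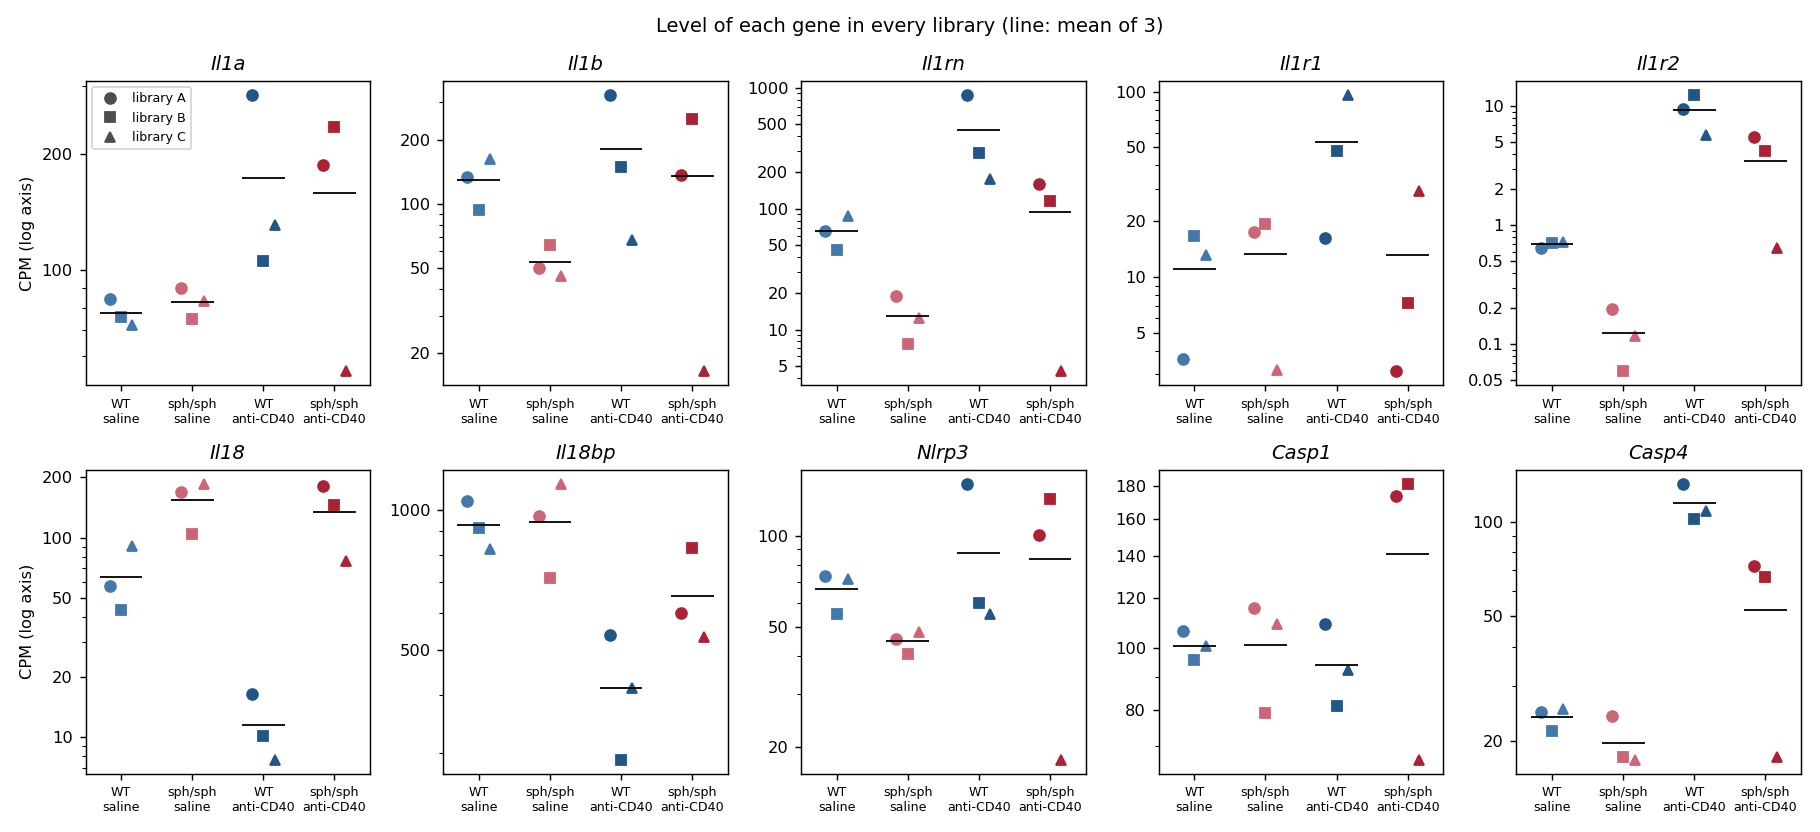
Level of each of the 10 genes in every library, in CPM on log axes that differ between panels. Circles, squares and triangles are libraries A, B and C, and the line is the mean of 3. Il18 lies at 7.68 to 16.5 CPM in WT anti-CD40 and at 43.3 CPM or above in every other library, and library C of sph/sph anti-CD40 is the lowest of its group for 9 of the genes.

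The promoters of the 3 genes whose responses are described most closely below are shown, from RefSeq starts on GRCm38.p6, each as the 250 bases before the start on the forward strand. All 10 genes matched an entry. Capitals mark matches, on either strand, to the NF-kB motif in Casp4 and to the AP-1 motif (TGANTCA) in Il1rn. Il18 is printed as well, with no match to these 2 or to the 3 other motifs searched.
Casp4, chr9:5308599-5308848: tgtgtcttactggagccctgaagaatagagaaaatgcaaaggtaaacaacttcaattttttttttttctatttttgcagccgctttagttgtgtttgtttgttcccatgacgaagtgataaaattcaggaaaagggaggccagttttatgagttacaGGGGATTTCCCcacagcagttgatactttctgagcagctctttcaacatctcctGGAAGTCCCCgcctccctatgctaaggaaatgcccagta
Il1rn, chr2:24336610-24336859: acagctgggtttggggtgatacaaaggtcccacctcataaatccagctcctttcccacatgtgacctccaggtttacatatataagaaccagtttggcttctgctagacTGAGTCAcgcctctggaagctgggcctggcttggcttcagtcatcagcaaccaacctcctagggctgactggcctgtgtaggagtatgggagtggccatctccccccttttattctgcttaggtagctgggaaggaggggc
Il18, chr9:50554450-50554699: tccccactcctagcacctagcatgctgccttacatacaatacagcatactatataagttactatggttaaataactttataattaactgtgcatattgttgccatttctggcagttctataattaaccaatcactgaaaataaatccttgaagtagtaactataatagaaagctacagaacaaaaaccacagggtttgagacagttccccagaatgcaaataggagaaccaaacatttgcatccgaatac
The first capitals in Casp4 hold 2 overlapping NF-kB matches that begin at -93 and -92 from the start, and the second hold a match on the other strand at -39. The Il1rn match begins at -141, and TGANTCA matches it on both strands. Windows of 300 bases, which add 50 bases after the start, held a match to NF-kB in 8.46% of the 32851 promoters listed for the mouse, to AP-1 in 7.81%, to the interferon motif ISRE in 3.44%, to GAS (TTCNNNGAA) in 8.30% and to C/EBP (TTGCNNAA) in 10.8%. Casp4 has 2 listed starts 11 bases apart, and the windows of both hold the same 3 matches. Il1rn has 2 further listed starts, whose windows begin at 24345041 and 24345121 on chromosome 2, and neither window holds a match to any of the 5 motifs. Among the other members, Nlrp3 held an NF-kB match, Il1a an AP-1 match, Il1r2 a GAS match and Il18bp a C/EBP match. Il1r1 held a C/EBP match at its first listed start and an NF-kB match at its second. Il1b and Casp1 held none. Matches thus stood in genes called below and in genes not called. A match is a description of the letters and no measurement of binding.

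Under anti-CD40 the genotypes differed most in Il18, by log2 fold among the 10. In WT, Il18 and Il18bp fell while Il1r2, Casp4 and Il1rn rose. In sph/sph no fall of Il18 was detected, and under anti-CD40 Il18 in sph/sph stood 11.7-fold above its level in WT. Il1a, Il1b, Il1r1, Nlrp3 and Casp1 passed in no comparison of the main edgeR fit of all 12 libraries. In WT under anti-CD40 DESeq2 called Il1a and Il1r1. Over the 19 alternative settings Il1a was called there in 4 and Il1r1 in 2.

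Calls are edgeR quasi-likelihood tests with a Benjamini-Hochberg adjusted p under 0.05 over the 13844 genes tested. Anti-CD40 in WT called 5 of the 10 genes, 3 higher and 2 lower, beside 39.2% of all genes tested (19.4% higher and 19.7% lower). DESeq2 called 7, adding Il1a and Il1r1, beside 6320 of all genes, and limma-voom 4, without Il1rn, beside 5246. The 2 WT groups did not overlap for 6 of the 10, 4 higher and 2 lower, beside 57.3% of all genes, so the share called and the share without overlap were both near the background. Between genotypes under anti-CD40, 1 of 10 was called (Il18, higher), beside 17.7% (11.5% higher and 6.19% lower), and 4 did not overlap, 1 higher and 3 lower, beside 28.4%.

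Anti-CD40 in sph/sph called 1 of 10 (Il1r2, higher), beside 0.78% of all genes (0.578% higher and 0.202% lower), and 1 did not overlap, beside 21.7%. Without library C of sph/sph anti-CD40 the same comparison called 7 of 10, all higher, beside 16.9%: Il1a, Il1b, Il1rn, Il1r2, Nlrp3, Casp1 and Casp4. Leaving out that library also raised the count to 7 in WT, beside 46.8%, and to 4 between genotypes under anti-CD40, beside 24.2%. Under saline it gave 1 call (Il1r2), beside 3.83%, and for the interaction 1 (Il18), beside 6.7%. The contrasts share groups with one another, so their counts are not independent.

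Under saline the genotypes gave no call among the 10 by edgeR, beside 2.04% of all genes (1.6% higher and 0.433% lower in sph/sph). At an unadjusted p under 0.05 there were 3 (Il18, Il1r2 and Il1rn), beside 1817 of the 13844 genes tested. DESeq2 called 1 (Il18), beside 831, and limma-voom 0, beside 254. The groups did not overlap for 5 of the 10, 1 higher and 4 lower in sph/sph, beside 31% of all genes. The interaction, which asks whether the response to anti-CD40 differed between genotypes, called 0 of 10 by edgeR beside 4.3% (3.18% higher and 1.12% lower). Il18 alone was at an unadjusted p under 0.05, beside 2603 of the 13844 genes tested. DESeq2 called 1 for the interaction, beside 1393, and limma-voom 0, beside 495. The median log2 fold of the 10 against that of all genes was -0.13 against 0.01 for genotype under saline, 0.82 against 0.05 for anti-CD40 in WT, 0.92 against 0.04 for anti-CD40 in sph/sph, -0.28 against 0.08 for genotype under anti-CD40 and 0.54 against 0.05 for the interaction.

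**Figure D2:**
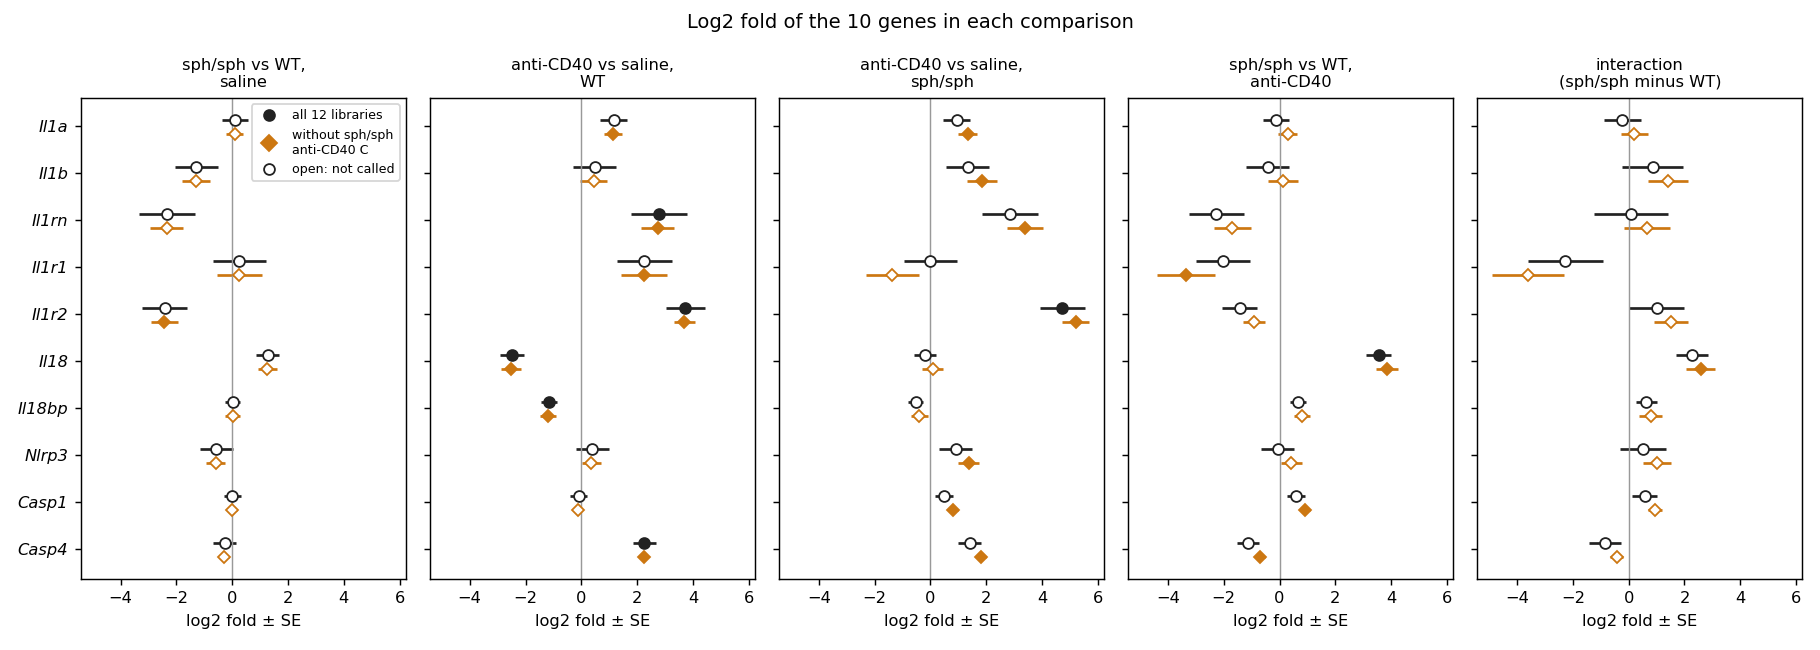
Log2 fold with its standard error (SE) for each gene in the 5 comparisons, with all 12 libraries (black circles) and without library C of sph/sph anti-CD40 (orange diamonds). Filled symbols were called at an adjusted p under 0.05. With all libraries 5 genes are filled for anti-CD40 in WT and 1 for each of the next 2 comparisons; the orange symbols add 6 in sph/sph.

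Of the ligands, Il18 (chromosome 9, 50554827 to 50581840, GRCm38, plus strand) separated the groups most. Its level was 57.3, 43.3 and 90.4 CPM in the 3 WT saline libraries and 16.5, 10.1 and 7.68 in WT anti-CD40. In sph/sph it was 169.6, 104 and 186 CPM under saline and 181, 145 and 75.9 under anti-CD40. The 2 WT groups did not overlap, nor did the genotypes under either treatment, while the 2 sph/sph groups did overlap.

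In WT the level of Il18 fell 5.58-fold under anti-CD40, a log2 fold of -2.48 ± 0.43 (SE) with an adjusted p of 0.0016 (edgeR). In sph/sph the corresponding log2 fold was -0.20 ± 0.40, with an adjusted p of 0.811. Between genotypes under anti-CD40 the log2 fold was 3.55 ± 0.44 with an adjusted p of 0.000678 (edgeR), and 3.84 without library C of sph/sph anti-CD40. Both called values of Il18 were called in all 19 alternative settings. Under saline Il18 was higher in every sph/sph library than in any WT library (log2 fold 1.27 ± 0.41), with an adjusted p of 0.172 (edgeR) that missed the threshold.

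The test of the difference itself, the interaction, gave 2.28 ± 0.57 for Il18 and an adjusted p of 0.0543 (edgeR), which missed the threshold. Without library C of sph/sph anti-CD40 it was 2.59 with an adjusted p of 0.0211, and without library A of WT anti-CD40 2.64 with 0.0285. The Kupffer cell marker sum moved in the same direction in WT, from 28905 CPM or above to 408 or below, and all 8 markers were higher in sph/sph than in WT under anti-CD40. In sph/sph, where no fall of Il18 was detected, that sum went from 23223 CPM or above to 16671 or below, with 0 of 8 markers called. Without library C of sph/sph anti-CD40 1 of these markers was called lower. Under saline 0 of 8 markers were called between genotypes, while Il18 did not overlap. Erythroid markers moved with the genotype difference in Il18: all 7 were called higher in sph/sph under either treatment. Their sum was 68.7 to 300.1 CPM in WT saline, 4974 to 8614 in sph/sph saline, 30.3 to 192 in WT anti-CD40 and 4161 to 15580 in sph/sph anti-CD40. The part of Kupffer cells and of erythroid cells or their RNA in the Il18 values was not tested.

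Il1b (chromosome 2, 129364570 to 129371139, minus strand), the precursor of the main secreted form of IL-1, varied more between libraries than between groups once anti-CD40 was given. It stood at 134.5, 93.6 and 163 CPM in WT saline and at 50.2, 64.1 and 46.1 in sph/sph saline, with no overlap. Under anti-CD40 it stood at 325, 149.9 and 68.1 CPM in WT and at 138, 251 and 16.5 in sph/sph. The highest and lowest library of each anti-CD40 group lay on either side of all the saline libraries of its genotype. The genotype difference under saline, a log2 fold of -1.28 ± 0.78, was not called (adjusted p = 0.55, edgeR). Anti-CD40 gave 0.48 ± 0.77 in WT and 1.33 ± 0.78 in sph/sph, the latter 1.86 and called without library C (adjusted p = 0.0421, edgeR).

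Il1a (chromosome 2, 129299610 to 129309972, minus strand), which lies beside Il1b, overlapped between genotypes under saline, at 84.3, 75.8 and 72.4 CPM in WT and 90.3, 74.8 and 83.6 in sph/sph. All 3 WT anti-CD40 libraries were above all WT saline libraries, at 284, 106 and 131 CPM, and sph/sph anti-CD40 held 187, 234 and 54.9. The log2 fold of 1.16 ± 0.48 in WT missed the threshold (adjusted p = 0.0786, edgeR), and passed it at 1.13 ± 0.32 (adjusted p = 0.016) without library C of sph/sph anti-CD40, which belongs to neither group compared but enters the shared spread. In sph/sph it was 0.94 ± 0.48 with all libraries (adjusted p = 0.287, edgeR) and 1.34 without library C (adjusted p = 0.0286).

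Among the brakes, Il1rn and Il1r2 rose in WT under anti-CD40 while Il18bp fell. Il1rn (chromosome 2, 24336853 to 24351494, plus strand) stood at 65.1, 45.4 and 86.4 CPM in WT saline and at 19.02, 7.60 and 12.4 in sph/sph saline. Under anti-CD40 it reached 876, 290.1 and 175 CPM in WT and 160.5, 115 and 4.53 in sph/sph. Sph/sph was below WT without overlap under both treatments, and library C held less Il1rn than any saline library.

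Il1rn rose in WT under anti-CD40, 6.81-fold, at a log2 fold of 2.77 ± 1.00 and an adjusted p of 0.0493 (edgeR). That call lay at the threshold: it was kept in 6 of the 19 alternative settings, with adjusted p values of 0.00435 to 0.167. Leaving out any library other than C of either anti-CD40 group ended it, and without library A of WT anti-CD40 the log2 fold was 1.82 with an adjusted p of 0.167 (edgeR). In sph/sph the log2 fold was 2.84 ± 1.01 (adjusted p = 0.157, edgeR), and 3.40 without library C (adjusted p = 0.00864). The interaction was 0.08 ± 1.32 (adjusted p = 0.986). Neither genotype difference was called although the libraries did not overlap: it was -2.34 ± 0.99 under saline (adjusted p = 0.347, edgeR) and -2.26 ± 0.98 under anti-CD40 (adjusted p = 0.144).

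Il1r2 (chromosome 1, 40074079 to 40125231, plus strand) was the least abundant of the 10 and had the largest log2 fold of the 10 under anti-CD40 in both genotypes. Its level was 0.64, 0.71 and 0.72 CPM in WT saline and 9.51, 12.49 and 5.76 in WT anti-CD40. In sph/sph it was 0.20, 0.06 and 0.12 CPM under saline, from 3, 1 and 2 reads, and 5.53, 4.22 and 0.65 under anti-CD40. Anti-CD40 gave higher values without overlap in both genotypes.

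The log2 fold of Il1r2 was 3.72 ± 0.70 in WT (adjusted p = 0.00249, edgeR), called in all 19 alternatives. In sph/sph it was 4.72 ± 0.80 (adjusted p = 0.0336, edgeR), or 5.21 without library C (adjusted p = 0.000524). Leaving out any library of either saline group, A or B of sph/sph anti-CD40, or B of WT anti-CD40 ended the sph/sph call, with adjusted p values of up to 0.197 (edgeR). From the summed counts alone the sph/sph ratio was 26.2, with an exact binomial 95% interval of 11.8 to 72.5 that covers counting error only. The interaction was 1.00 ± 0.98 (adjusted p = 0.637, edgeR). Under saline Il1r2 was lower in sph/sph without overlap, -2.42 ± 0.80 on the log2 scale, with an adjusted p of 0.191, and of 0.0257 without library C of sph/sph anti-CD40. Under anti-CD40 Il1r2 was again lower in sph/sph without overlap, at -1.42 ± 0.63, and not called (adjusted p = 0.15, edgeR).

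Neutrophils and monocytes are known to carry the decoy receptor Il1r2. In WT under anti-CD40 5 of 9 neutrophil markers tested and 4 of 6 monocyte markers rose, and 6 of each without library C of sph/sph anti-CD40. In sph/sph 0 of 9 neutrophil markers and 1 of 6 monocyte markers were called higher, and 0 and 6 without library C. The neutrophil sum of sph/sph saline, 141 to 228 CPM, overlapped that of sph/sph anti-CD40. The monocyte sum did not overlap, at 74.4 to 213 CPM in sph/sph saline and 357 to 1520 in sph/sph anti-CD40. Within each anti-CD40 group the libraries had the same order for Il1r2 and for both marker sums: the neutrophil sum was 535, 632 and 206 CPM in WT and 334, 212 and 153 in sph/sph, and the monocyte sum 1284, 1399 and 669 in WT and 1520, 882 and 357 in sph/sph. Under saline the order was shared only by Il1r2 and the monocyte sum in sph/sph. The part of these cells in Il1r2 was not tested.

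Il18bp (chromosome 7, 102014885 to 102018690, minus strand) had the highest mean CPM of the 10 in every group but WT anti-CD40. There Il1rn averaged 447 CPM against 414 for Il18bp. Il18bp stood at 1043, 916 and 824 CPM in WT saline and at 538, 290.1 and 414 in WT anti-CD40. In sph/sph it was at 972, 713 and 1138 CPM under saline and at 599, 829 and 534 under anti-CD40. The WT groups did not overlap and the sph/sph groups did. In WT it fell 2.24-fold (log2 fold -1.16 ± 0.28, adjusted p = 0.00821, edgeR), called in all 19 alternatives.

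In sph/sph the log2 fold of Il18bp was -0.53 ± 0.27 (adjusted p = 0.292, edgeR), and the interaction, 0.64 ± 0.38, was not called (adjusted p = 0.413). Its exons overlap 80 bases of Numa1 on the other strand, and whether counting used strand is not known here. Il1a and Il1b share 222 and 25 bases in the same way with the non-coding genes Gm14023 and Il1bos.

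Of 4 ratios taken within each library, 3 set a brake against its ligand and 1 sets the decoy against the receptor. The 3 of brake to ligand did not overlap between WT and sph/sph under either treatment. Single genes did not overlap for 31% under saline and 28.4% under anti-CD40, and the share over other gene pairs was not computed. Il1rn enters both the ratio to Il1b and that to Il1a, so these are not independent. The exact permutation test on 3 libraries against 3 cannot pass the threshold. The log2 ratio of Il1rn to Il1b counts was -1.0 ± 0.08 (SD, n = 3) in WT saline, -2.12 ± 0.86 in sph/sph saline, 1.25 ± 0.26 in WT anti-CD40 and -0.92 ± 1.05 in sph/sph anti-CD40. For 1 read of Il1b there were 0.48, 0.49 and 0.53 reads of Il1rn in the WT saline libraries and 2.69, 1.94 and 2.58 in WT anti-CD40. Sph/sph libraries held 0.38, 0.12 and 0.27 under saline and 1.17, 0.46 and 0.28 under anti-CD40. The read ratio thus stood above 1 in all 3 WT anti-CD40 libraries and in 1 of the 3 from sph/sph anti-CD40. Reads are not corrected for length, and Il1rn has 5535 bases of exon against 1907 for Il1b. Per kilobase of exon the mean of Il1b (95.0 CPM) was above that of Il1rn (80.8) in WT anti-CD40, with overlapping ranges. By the longest transcript Il1rn was the higher. A read ratio above 1 therefore does not show more Il1rn than Il1b transcript.

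Against Il1a the log2 ratio of Il1rn was -0.29 ± 0.50, -2.76 ± 0.52, 1.17 ± 0.65 and -1.61 ± 1.76 in the same order of groups. The log2 ratio of Il18bp to Il18 was 3.92 ± 0.65, 2.63 ± 0.13, 5.20 ± 0.48 and 2.35 ± 0.56. In reads, there were 32.6, 28.6 and 53.9 of Il18bp for each of Il18 in WT anti-CD40 and 3.32, 5.72 and 7.03 in sph/sph anti-CD40. Both transcripts fell in WT, Il18 more than Il18bp, so the ratio was highest in the group with the least of either.

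Of 16 ratio comparisons, 4 ratios in 4 contrasts, 9 reached an exact two-sided permutation p of 0.1, the smallest that 3 against 3 allows, with a Benjamini-Hochberg adjusted value of 0.178. These 9 had no overlap and were the 3 ratios above for genotype under either treatment and for anti-CD40 in WT. The log2 ratio of Il1r2 to Il1r1 overlapped between groups in all 4 contrasts (exact permutation p of 0.2 to 0.9). Without library C of sph/sph anti-CD40 the differences between genotypes under anti-CD40 were -1.70 for Il1rn to Il1b, against -2.16 with it, -1.79 against -2.78 for Il1rn to Il1a, and -3.08 against -2.85 for Il18bp to Il18.

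**Figure D3:**
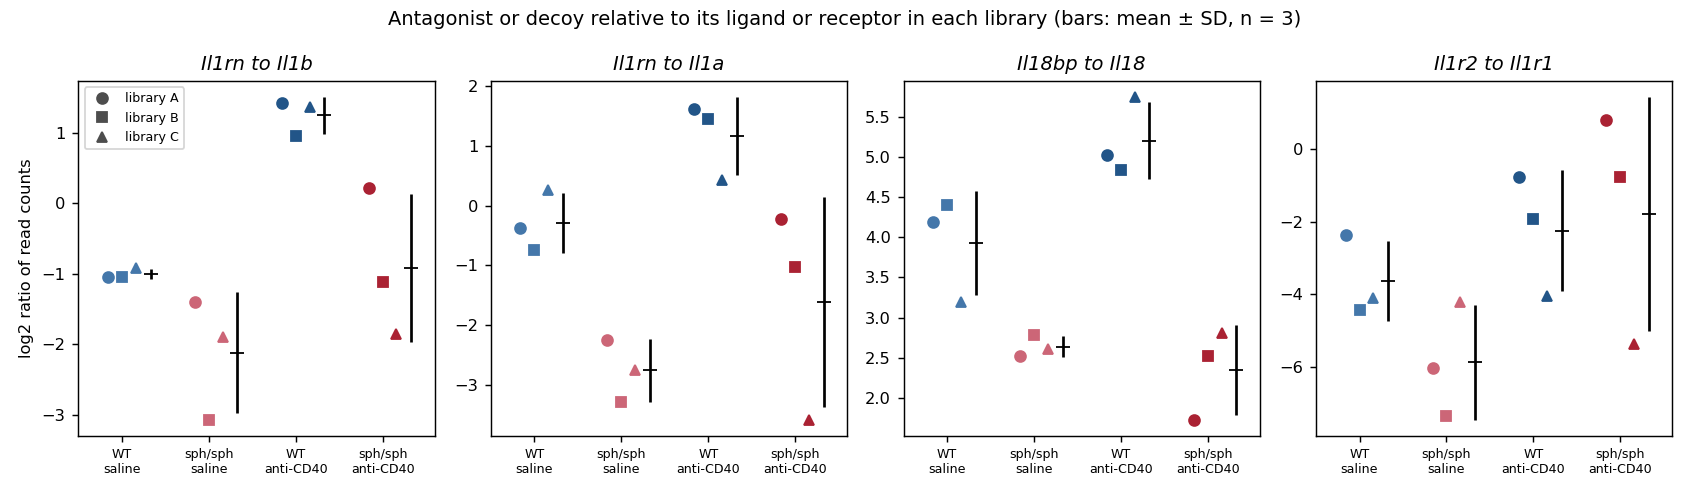
Log2 ratio of read counts of an antagonist or decoy to its ligand or receptor in each library, with the mean and SD of 3 libraries beside the points. Counts are not corrected for gene length, so 0 does not mark equal amounts of transcript. The Il1rn to Il1b ratio lies above 0 in all 3 WT anti-CD40 libraries, and the Il18bp to Il18 ratio of WT anti-CD40 lies above that of every other group.

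Il1r1 (chromosome 1, 40225080 to 40317257, plus strand), the receptor through which both forms of IL-1 signal, spread widely within every group. It stood at 3.599, 16.6 and 13.1 CPM in WT saline, 17.4, 19.4 and 3.14 in sph/sph saline, 16.2, 47.8 and 96.0 in WT anti-CD40 and 3.11, 7.25 and 29.1 in sph/sph anti-CD40. All groups overlapped with one another. The log2 fold of 2.26 ± 0.98 in WT under anti-CD40 was not called (adjusted p = 0.09, edgeR), nor was -2.01 ± 0.97 between genotypes under anti-CD40 (adjusted p = 0.186). Without library C of sph/sph anti-CD40 both were called, at 2.25 (adjusted p = 0.0487) and -3.36 (adjusted p = 0.0426, edgeR).

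In each of the 4 groups the 3 libraries had the same order for Il1r1 and for the sum of 6 endothelial markers. Il1r1 and the sum of 6 stellate cell markers shared their order in WT saline and sph/sph anti-CD40 only. How many other genes share the order of a marker sum was not computed, for these or the other marker lists. The endothelial sum was 2218, 3283 and 2880 CPM in WT saline and 2087, 2349 and 1526 in sph/sph saline. It was 752, 1986 and 3105 in WT anti-CD40 and 595, 1067 and 2026 in sph/sph anti-CD40. The part of endothelial cells in Il1r1 was not tested.

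**Figure D4:**
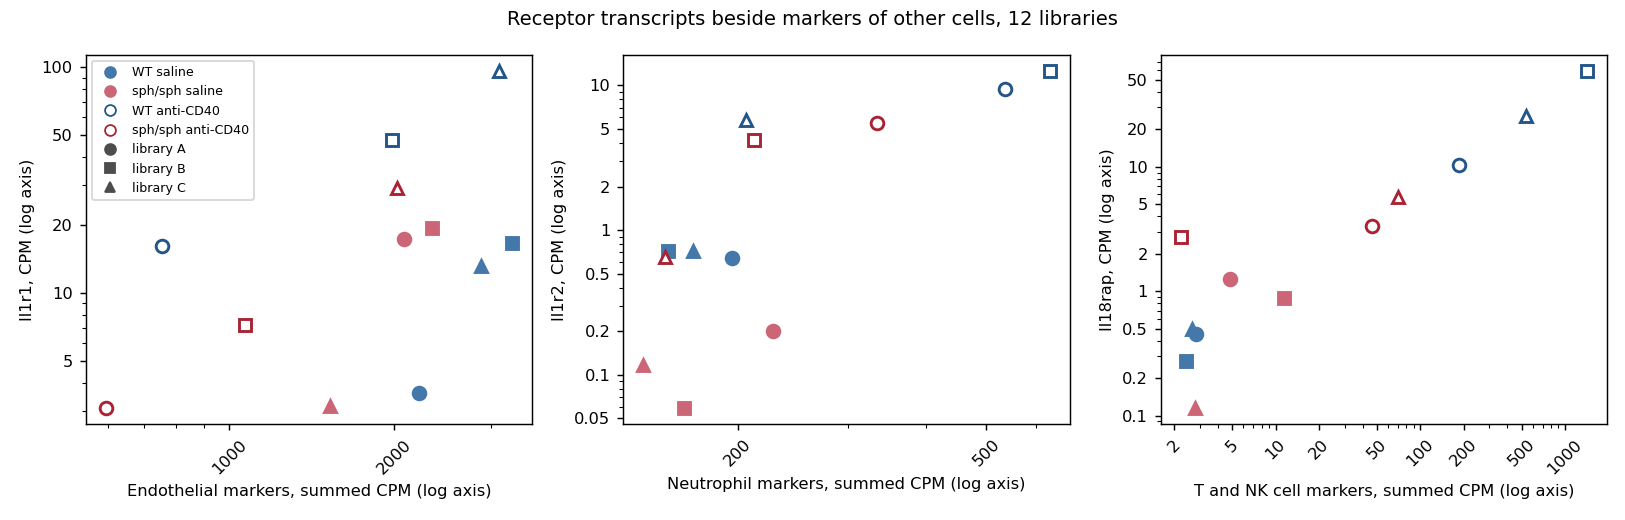
Level of Il1r1, Il1r2 and Il18rap in the 12 libraries against the summed level of endothelial, neutrophil, and T and NK cell markers, all in CPM on log axes. Filled symbols are saline and open symbols anti-CD40, and shapes are libraries A to C. Within the WT anti-CD40 libraries each receptor is highest where the marker sum is highest.

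Of the sensor and the caspases, Casp4 rose in WT, and Nlrp3 and Casp1 did not pass the test in any comparison with all libraries. Casp4 (chromosome 9, 5308828 to 5336783, plus strand) encodes caspase-11, which senses bacterial lipopolysaccharide inside the cell and cuts gasdermin D. It stood at 24.7, 21.5 and 25.4 CPM in WT saline and at 132, 102 and 108 in WT anti-CD40, far apart. In sph/sph it was at 24.1, 17.8 and 17.5 CPM under saline and at 72.5, 66.6 and 17.9 under anti-CD40, where A and B were above every saline library and C was among them.

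The rise of Casp4 in WT was 4.78-fold (log2 fold 2.26 ± 0.42, adjusted p = 0.00243, edgeR), called in all 19 alternatives and with a narrow range of 2.14 to 2.31 on leaving out each library. In sph/sph the log2 fold was 1.40 ± 0.41 (adjusted p = 0.109, edgeR), and 1.80 without library C (adjusted p = 0.000569). Sph/sph anti-CD40 was below WT anti-CD40 without overlap, at -1.13 ± 0.40 on the log2 scale (adjusted p = 0.0822), and -0.71 without library C, then called (adjusted p = 0.0186, edgeR). The interaction of -0.86 ± 0.57 was not called (adjusted p = 0.462).

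Casp1 (chromosome 9, 5298517 to 5307265, plus strand), which ends just before Casp4 begins on the same strand, had the smallest log2 fold of the 10 between genotypes under saline and in WT under anti-CD40. Its levels were 106, 95.6 and 101 CPM in WT saline, 116, 78.9 and 109 in sph/sph saline, 109, 81.0 and 92.4 in WT anti-CD40 and 174, 182 and 66.6 in sph/sph anti-CD40. Only libraries A and B of the last group lay outside the range of the other groups on the high side. Anti-CD40 gave a log2 fold of -0.10 ± 0.32 in WT (adjusted p = 0.823) and 0.48 ± 0.32 in sph/sph (adjusted p = 0.41, edgeR). Without library C the latter was 0.80 (adjusted p = 0.0177, edgeR) and the genotype difference under anti-CD40 was 0.93 (adjusted p = 0.00799).

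Nlrp3 (chromosome 11, 59541568 to 59566956, plus strand), the sensor that responds to membrane and ion disturbances, had a narrower range than Il1b in both genotypes under anti-CD40. It stood at 73.3, 55.1 and 71.9 CPM in WT saline, 45.6, 40.7 and 48.1 in sph/sph saline, 149, 59.8 and 55.1 in WT anti-CD40 and 101, 132 and 18.1 in sph/sph anti-CD40. The genotypes did not overlap under saline, with a log2 fold of -0.58 ± 0.59 that was not called (adjusted p = 0.75, edgeR). In sph/sph anti-CD40 gave 0.90 ± 0.59 (adjusted p = 0.4) and 1.37 without library C (adjusted p = 0.0356, edgeR).

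Per kilobase of exon, Il18bp had the highest mean of the 10 in all 4 groups and Il1r2 the lowest. The range of Il18bp overlapped that of Il1b in WT anti-CD40, and the range of Il1r2 that of Il1r1 in sph/sph anti-CD40. Il18bp held 307 ± 36.5 CPM per kilobase (SD, n = 3) in WT saline, 311 ± 70.8 in sph/sph saline, 137 ± 41.0 in WT anti-CD40 and 216 ± 51.2 in sph/sph anti-CD40. Il18 had rank 2 in both sph/sph groups, at 149 ± 42.3 under saline and 129.8 ± 51.6 under anti-CD40, rank 4 in WT saline at 61.8 ± 23.5 and rank 8 in WT anti-CD40 at 11.1 ± 4.41. In WT saline the ranges of Il1b (68.3), Casp1 (67.4), Il18 (61.8) and Il1a (39.3 CPM per kilobase) overlapped from each to the next, so neighbours in this stretch do not differ beyond their spread.

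In sph/sph saline 8 of the 9 neighbouring pairs in the order did not overlap, the exception being Il1rn (2.35 CPM per kilobase) and Il1r1 (2.09). In WT anti-CD40 8 of 9 neighbours did overlap. The order depends on the length used: by the longest transcript in place of all exons, Il1rn came first in WT anti-CD40, ahead of Il18bp. By that length Il1r1 came last in sph/sph anti-CD40, below Il1r2.

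The wider pathway was followed through 49 further genes, of which 45 passed the filter on low counts; Il1f10, Il36a, Il36b and Il36rn did not. In WT under anti-CD40, 11 of the 45 rose and 13 fell, beside 39.2% of all genes called, with a median log2 fold of -0.10 against 0.05 for all genes. Without library C of sph/sph anti-CD40, 15 of the 45 rose and 14 fell, beside 46.8%. The receptor subunits for IL-18, the interferon-gamma gene and the guanylate-binding proteins rose. Of the 13 genes for inflammasome sensors and their adaptor 5 fell, beside 19.7% of all genes called lower. Without library C of sph/sph anti-CD40 6 fell and Pycard rose, beside 46.8% of all genes called in either direction. In sph/sph no pathway gene was called by edgeR or limma-voom, beside 108 and 88 of the 13844 genes tested. Of the 45, 11 were at an unadjusted p under 0.05, beside 2901 of all genes, and DESeq2 called 7, beside 1380. Without library C edgeR called 10, of which 9 were higher, beside 16.9% of all genes.

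The 6 largest changes in WT were all rises. Ifng, the interferon that IL-18 is known to induce, had a log2 fold of 8.46 ± 1.07 (adjusted p = 0.000298, edgeR), from 2, 1 and 0 reads under saline to 243, 706 and 335 under anti-CD40, a count ratio of 408 with a 95% interval of 139 to 1979 for counting error. Il18r1 and Il18rap, the subunits of the IL-18 receptor, rose by 7.16 ± 1.63 and 6.25 ± 0.87 on the log2 scale (adjusted p = 0.00683 and 0.000533, edgeR). Il36g, an IL-1 family ligand, rose by 6.16 ± 1.32, from 0, 2 and 9 reads to 343, 322 and 134. Gbp2 and Gbp5, interferon-induced GTPases that promote inflammasome activation, rose by 4.17 ± 0.76 and 3.84 ± 0.75.

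T and NK cell markers rose with these receptors: 10 of 10 markers were called in WT, and their sum went from 2.42 to 2.83 CPM under saline to 185, 1420 and 539 under anti-CD40. Il18rap stood at 10.4, 58.5 and 25.7 CPM in the same libraries, in the same order. In sph/sph anti-CD40 the T and NK cell sum was 46.2, 2.22 and 70.4 CPM and Il18rap 3.32, 2.74 and 5.72, again in one order. Under saline the order of Il18rap and of that sum was shared in neither genotype. In sph/sph saline Il18rap was at 0.12 to 1.26 CPM, below every sph/sph anti-CD40 library. The T and NK cell sum, at 2.79 to 11.5 CPM in sph/sph saline, did overlap that of sph/sph anti-CD40. The part of T and NK cells in Ifng, Il18r1 and Il18rap was not tested.

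Among the genes that fell in WT were Naip6, Naip5 and Nlrp1b, sensors of bacterial proteins and proteases, at -2.33, -2.28 and -2.08 on the log2 scale, and P2rx7, the ATP-gated channel that triggers NLRP3, at -1.52. These 4 were chosen as examples after their values were seen. The adaptor Pycard, which links sensors to caspase-1, had a log2 fold of 1.06 ± 0.42 and was not called (adjusted p = 0.066, edgeR). Gsdmd, the pore protein cut by both caspases, had 0.52 ± 0.35 (adjusted p = 0.253).

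The shared IL-1 coreceptor Il1rap (-0.36, adjusted p = 0.253), the adaptor Myd88 (0.56, adjusted p = 0.17) and the inhibitors Sigirr (2.47, adjusted p = 0.0683) and Irak3 (1.04, adjusted p = 0.13) were not called in WT by edgeR either. Without library C of sph/sph anti-CD40, Pycard, Myd88, Sigirr and Irak3 were called higher in WT, at 1.03, 0.53, 2.44 and 1.01. In sph/sph the log2 folds with all libraries were 0.91 for Pycard, 0.70 for Gsdmd, -0.18 for Il1rap, 0.46 for Myd88, 1.40 for Sigirr and 1.53 for Irak3, none called. Of these, edgeR called Pycard (1.25), Gsdmd (1.05), Myd88 (0.78) and Irak3 (1.95) without library C. Those for Il18r1 and Il18rap in sph/sph were 2.56 and 2.38, also not called (adjusted p = 0.315 and 0.128, edgeR).

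**Figure D5:**
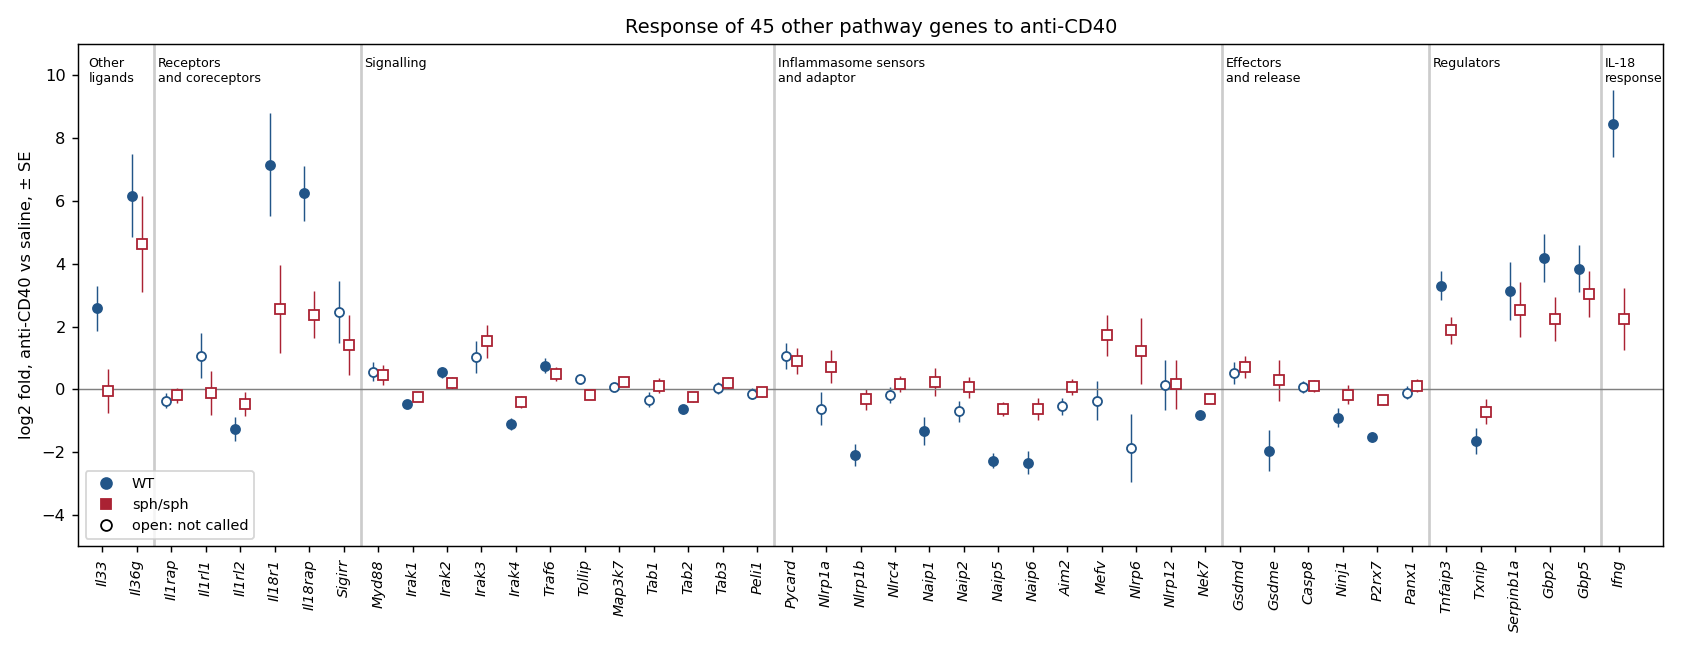
Log2 fold with SE of 45 further pathway genes under anti-CD40 against saline, in WT (blue circles) and sph/sph (red squares), in blocks by role. Filled symbols were called at an adjusted p under 0.05. In WT 11 genes are filled above 0 and 13 below, with Ifng at 8.46 the highest, and no sph/sph gene is filled.

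Between genotypes under anti-CD40, 9 of the 45 were called, beside 17.7% of all genes. Lower in sph/sph were Ifng (-5.24 ± 0.86), Il36g (-3.67 ± 1.13), Il18rap (-2.999 ± 0.72) and Irak2 (-0.62 ± 0.18, adjusted p = 0.0429, edgeR). Higher were Nlrp1b (1.68 ± 0.35), Naip5 (1.13 ± 0.23), Ninj1 (1.13 ± 0.31), the protein that ruptures the membrane of dying cells, P2rx7 (0.71 ± 0.17) and Nek7 (0.51 ± 0.14, adjusted p = 0.0297), a partner of NLRP3. Without library C of sph/sph anti-CD40 the calls of Irak2 (adjusted p = 0.0906) and Nek7 (adjusted p = 0.0501, edgeR) were lost. That fit added Il18r1 (-6.36, adjusted p = 0.0105), Il33 (-3.22), Tollip (-0.42), Irak3 (1.78, adjusted p = 0.00773, edgeR) and Mefv (1.34). It gave 12 calls in place of 9, beside 24.2% of all genes. P2rx7, Nek7 and Irak2, and Il33, Tollip and Mefv, are named here after their values were seen. Of 12 fits that each left out 1 library, the call of Il36g was kept in 2 (without A of WT saline or C of sph/sph anti-CD40), with adjusted p values of up to 0.115 (edgeR), those of Ninj1 and Nek7 in 6, Irak2 in 2, Il18rap in 9, P2rx7 in 10, and those of Ifng, Nlrp1b and Naip5 in all 12.

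The interaction called 2 of the 45, both higher in sph/sph, beside 4.3%: Naip5 at 1.64 ± 0.33 and P2rx7 at 1.19 ± 0.24 (adjusted p = 0.0203 and 0.0214, edgeR). Each call was kept in 6 of the 12 fits that left out 1 library. Leaving out library C of sph/sph anti-CD40 gave 6 calls among the 45, beside 6.7%: these 2, Nlrp1b and Mefv higher, and Il18r1 and Il33 lower.

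Il18 and Ifng thus stood in opposite order between genotypes under anti-CD40: sph/sph held more Il18 in every library and less Ifng, at 1.24, 0.15 and 0.43 CPM against 16.2, 37.1 and 16.5 in WT. The T and NK cell sum was lower there as well, with 5 of 10 markers called lower, and 10 of 10 without library C of sph/sph anti-CD40. With all libraries Il18r1 (-3.52 ± 1.28, adjusted p = 0.0882, edgeR), Sigirr, Myd88, Irak3, Pycard, Gsdmd and Il1rap were not called in this comparison. Under saline edgeR and limma-voom called no pathway gene between genotypes, beside 282 and 254 of the 13844 genes tested. At an unadjusted p under 0.05 there were 8, all lower in sph/sph, beside 1817 of all genes, and DESeq2 called 1, beside 831.

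Likeness of pattern is given as a description, as Pearson's r of log2 CPM over the 12 libraries among the 13844 genes tested. The libraries fall into 4 groups, so r reflects both the group means and the spread between libraries within a group. For Il1b that spread was wide, from 16.5 to 251 CPM within sph/sph anti-CD40 alone. Il1b was most like Nlrp3 (0.95), then Fbxw17 (0.93) and Pik3r6 (0.92). Il1rn was most like Oasl2 and Smpdl3b (0.97 each) and Tubb6 (0.96). Il18 was most like Blvra and Nme4 (0.99 each) and Taldo1 (0.98), of which Blvra encodes biliverdin reductase, a step of heme breakdown. Il18bp was most like Itm2c (0.98), Abcg1 and Vps4b (0.97 each). Of these 12 genes 1, Nlrp3, belongs to the axis.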

How the data were processed

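Counts per gene were used as the authors deposited them, whole numbers with 1 column per library and 0 columns unused. The submitters' processing notes name the tools featureCounts, SAMtools 1.9 and STAR 2.7.0e and the build GRCm38.p5. The annotation release is not given in the sources used here, nor is the strand setting, and the kit is stranded per the labels' protocols. Columns name treatment and genotype but carry no replicate number. Of 25700 Ensembl identifiers, 25587 matched a symbol. Gene positions and exon lengths are from GENCODE M21 (GRCm38), counted from 1.

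The 10 genes, the pathway list and the marker lists were chosen with earlier results of these data known. In edgeR 4.0.16 (R 4.3.3), filterByExpr by group left 13844 genes; TMM scaling, a robust quasi-likelihood fit with a mean per group and Benjamini-Hochberg adjustment over all genes followed, with a common biological coefficient of variation of 0.382. SEs are approximate: each is the absolute log2 fold over the root of its F statistic. CPM use TMM-scaled library sizes. Ratios add 1 to each count. All 10 genes were tested and drawn in each contrast, and the text prints only part of these values. Up to 6 called pathway genes of largest log2 fold per contrast and 8 fixed ones were set for naming. Not all of their values are printed for every contrast. The 3 genes most like each of 4 members were named as well. The fit was tested on simulated counts. Alternatives were DESeq2 1.42.0, limma-voom (limma 3.58.1), other scalings and filters, 2-group fits, a term for Y-linked counts and leaving out each library; permutation tests used scipy 1.17.1.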

Additional observations from a re-analysis of the deposited data

Results flagged for a closer look

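By the interaction term of the edgeR fit, the response to anti-CD40 was called different between genotypes for 2 of the 45 pathway genes. That count is near the background of 4.3% of all genes tested, so it does not set the pathway apart. Naip5, a sensor of bacterial flagellin, stood at 164, 143 and 133 CPM in WT saline and 41.6, 24.3 and 25.0 in WT anti-CD40, against 126, 87.2 and 95.3 and then 64.8, 77.4 and 56.9 in sph/sph. Its response in sph/sph minus that in WT was 1.64 on the log2 scale, and 1.77 without library C of sph/sph anti-CD40. Leaving out B or C of WT anti-CD40, A of WT saline, B of sph/sph anti-CD40, or B or C of sph/sph saline ended the call, with adjusted p values of up to 0.0658 (edgeR). P2rx7, the ATP-gated channel, stood at 100.4, 88.6 and 112 CPM in WT saline and 28.4, 34.7 and 42.0 in WT anti-CD40, against 76.5, 65.2 and 75.3 and then 58.6, 64.4 and 49.2 in sph/sph. Its difference of responses was 1.19, and 1.30 without that library. Leaving out A or C of WT saline, B of either anti-CD40 group, or A or B of sph/sph saline ended it, with adjusted p values of up to 0.0691 (edgeR). Both were lower under anti-CD40 without overlap in WT and in sph/sph, though in sph/sph neither was called by edgeR. So was the sum of Kupffer cell markers, from 28905 CPM or above to 408 or below in WT. In sph/sph that sum went from 23223 CPM or above to 16671 or below. The part of these cells was not tested.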

How the results depend on the processing

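No paired analysis was possible because the columns of the count table carry no replicate number; the ID number that the A libraries of both genotypes share within each treatment ties no other library. The term for Y-linked counts sets those same A libraries apart. Of the 5 genes called in WT, Il18, Il18bp, Il1r2 and Casp4 kept their direction and call in all 19 alternatives, as did Il18 between genotypes under anti-CD40. The number of the 10 genes called under saline was 1 with DESeq2 and 2 with only the 2 groups compared, in place of 0. For anti-CD40 in sph/sph it was 3 with DESeq2, 0 with limma-voom and 0 with only the 2 groups, in place of 1; between genotypes under anti-CD40 3 with DESeq2 and 2 with total-count scaling, in place of 1; for the interaction 1 each with DESeq2, total-count scaling and a term for Y-linked counts that was chosen after seeing the data, in place of 0. On leaving out each library in turn these counts ran from 0 to 1 under saline, 0 to 7 in sph/sph, 1 to 4 between genotypes under anti-CD40 and 0 to 1 for the interaction, and the highest came without library C of sph/sph anti-CD40. Over all genes the calls ran from 73 to 539 under saline (282 with all libraries; 831 with DESeq2, 894 with only the 2 groups), 0 to 2372 for sph/sph (108; 1380 and 0), 1355 to 3408 between genotypes under anti-CD40 (2455; 3391 and 703) and 259 to 944 for the interaction (595; 1393 with DESeq2). By the longest transcript 6 of the 10 kept their rank per kilobase in WT saline, 6 in WT anti-CD40 and 2 in sph/sph anti-CD40.

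The changes of sign were in log2 folds with no call. Under saline Il18bp was -0.00077 with limma-voom, -0.0023 with only the 2 groups and -0.070 with total-count scaling, and Casp1 -0.0024 with DESeq2 and with its size factors, -0.015 with limma-voom, -0.0071 without a filter, -0.020 with only the 2 groups, -0.0057 with the Y-linked term and -0.084 with total-count scaling. Il1r1 in sph/sph was 0.11 with total-count scaling, Nlrp3 between genotypes under anti-CD40 0.013 with the Y-linked term, and the Il1rn interaction -0.69 with limma-voom. Leaving out each library gave, under saline, Casp1 -0.10 to 0.16, Il18bp -0.14 to 0.19, Il18r1 -0.34 to 2.94, Il1r1 -0.16 to 0.72, Myd88 -0.13 to 0.038, Pycard -0.047 to 0.30 and Sigirr -1.05 to 0.31. In WT it gave Il1b -0.26 to 0.83 and Nlrp3 -0.22 to 0.60, and in sph/sph Il18 -0.47 to 0.075, Il18r1 -0.30 to 3.98, Il1r1 -1.36 to 0.45 and Sigirr -0.19 to 2.32. Between genotypes under anti-CD40 it gave Gsdmd -0.55 to 0.082, Il1a -0.52 to 0.43, Il1b -1.23 to 0.31, Myd88 -0.38 to 0.20, Nlrp3 -0.56 to 0.54 and Pycard -0.47 to 0.33. For the interaction it gave Gsdmd -0.088 to 0.56, Il1a -0.62 to 0.33, Il1rn -0.56 to 1.02, Myd88 -0.34 to 0.25 and Pycard -0.59 to 0.22. The log2 ratio of Il18bp to Il18 changed by -0.51 to 0.029 in sph/sph under anti-CD40, and that of Il1r2 to Il1r1 differed by -0.83 to 2.27 between genotypes under anti-CD40. The causes were not tested. Il1r2, with 6 reads in all of sph/sph saline, is the member that depth limits most.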
